A study of Mus musculus with 6 samples.

Results

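The liver breaks down the aromatic amino acids phenylalanine, tyrosine and tryptophan, and histidine, through short chains of enzymes, and 9 of the genes for these enzymes are described here: Tat, Hpd, Hgd, Gstz1 and Fah of the tyrosine chain, Tdo2, Kmo and Haao of the tryptophan chain, and Hal of the histidine chain. They were chosen by name, and every non-control array probe whose accession belongs to one of them in RefSeq GRCm38 was taken. All 9 genes had a probe, and together they had 10 of the 55681 probes, Kmo with 2 and each of the others with 1. All 10 probes were well above background on all 6 arrays, so no member was lost to the filter on dim probes, which kept 23132 probes for 12297 named genes.

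RNA came from livers of male mice, 3 wild-type (WT) and 3 lacking Gα12 (knockout, KO), a G protein subunit that is encoded by Gna12 and carries signals from cell surface receptors. All mice were 8 weeks old, ate a chow diet, were fasted overnight before the livers were taken, and had a mixed C57BL/6 and 129/Sv background that was 95% C57BL/6. The labels do not state which part of Gna12 was removed, or that it was removed in chosen cell types only. Each animal gave 1 array of a 1-colour Agilent design, and the study's question was how the loss of Gα12 alters liver transcripts.

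In the fed and fasted liver, these chains turn surplus amino acids into fuel. Tyrosine is taken by way of homogentisate and fumarylacetoacetate to fumarate and acetoacetate, one a precursor of glucose and the other a ketone body. Tryptophan is opened to kynurenine, from which branches lead to NAD and to complete oxidation, and histidine is turned by way of urocanate into glutamate. Inherited loss of single enzymes of the tyrosine chain causes alkaptonuria and the tyrosinaemias, and Tat and Tdo2 are classic genes of the hepatocyte that glucocorticoids switch on.

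A level below is the log2 signal of a probe minus the array's 75th percentile, and a difference is KO minus WT on that scale, from a limma fit over all kept probes. The 3 WT livers were not alike. Across the kept probes, the correlation was 0.973 between WT replicates 1 and 2, 0.869 to 0.930 between these and the KO livers, and 0.966 to 0.982 between WT replicate 3 and the KO livers. The 7 probes of Gapdh, a glycolytic gene, spanned 9.58 and 7.79 log2 units on WT replicates 1 and 2, and 4.01 to 4.87 on the other 4 arrays. The 3 WT arrays shared a row of the slide and the 3 KO arrays the other, so genotype cannot be told apart from slide row. Spots flagged as non-uniform numbered 2 to 6 on the WT arrays and 98 to 158 on the KO arrays. The scanner's estimate of background error was 5.97 to 8.6 on the WT arrays and 10.5 to 13.3 on the KO arrays. The part of these readings in the values below was not tested. The Gna12 probe was at -3.48, -4.55 and -0.89 in WT replicates 1 to 3 and at -4.91, -4.62 and -3.47 in KO replicates 1 to 3. It was well above background only on WT replicate 3, so it says little about the genotype labels. Hepatocyte markers had strong signals in every liver: all 8 of the 10 markers that could be matched to probes were kept. Their summed signal, in multiples of the array's 75th percentile, was 3930 to 7030 in WT and 4670 to 6050 in KO livers. In limma 0 of the 8 had an unadjusted p below 0.05, against 20.6% of all genes. Their differences were above 0 for 5 and below 0 for 3, against 27.7% and 72.3% of all genes.

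The tyrosine chain begins with Tat, whose enzyme, tyrosine aminotransferase, removes the amino group and sets the pace of the chain. Tat stood at 5.72, 6.89 and 7.39 in WT replicates 1 to 3 and at 8.08, 8.16 and 7.92 in KO replicates 1 to 3. All 3 KO livers lay above all 3 WT livers, and WT replicate 3, which resembled the KO livers over the array, was the highest of the WT livers and still at -0.66 relative to the KO mean. WT livers averaged 6.67 ± 0.86 (SD, n = 3) and KO livers 8.05 ± 0.12 (SD, n = 3), a fitted difference of 1.39 (SE 0.46), or 2.61-fold higher in the KO. It had an unadjusted p of 0.018 and did not pass limma's test over all probes (adjusted p = 0.235). In whole liver RNA, fewer cells of a type and less RNA per cell cannot be told apart.

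Tat and Hal open the tyrosine and the histidine chain and had fitted differences of opposite sign. That of Hal, -0.57, was close to the median of -0.49 over all genes. The promoter windows of both genes are shown for their place in the chains and their signs. Each runs from 250 bases before to 50 bases after the RefSeq start site (GRCm38.p6), Tat at chr8:109990186-109990485 on the plus strand and Hal at chr10:93488518-93488817 on the plus strand. Capitals mark matches, on either strand, to a CCAAT box (CCAAT) or a TATA box (TATAAA).
Tat: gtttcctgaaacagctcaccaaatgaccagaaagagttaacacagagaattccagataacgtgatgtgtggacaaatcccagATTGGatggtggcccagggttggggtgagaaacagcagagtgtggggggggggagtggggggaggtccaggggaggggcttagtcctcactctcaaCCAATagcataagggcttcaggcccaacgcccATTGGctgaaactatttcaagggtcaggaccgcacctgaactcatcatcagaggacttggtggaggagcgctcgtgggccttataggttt
Hal: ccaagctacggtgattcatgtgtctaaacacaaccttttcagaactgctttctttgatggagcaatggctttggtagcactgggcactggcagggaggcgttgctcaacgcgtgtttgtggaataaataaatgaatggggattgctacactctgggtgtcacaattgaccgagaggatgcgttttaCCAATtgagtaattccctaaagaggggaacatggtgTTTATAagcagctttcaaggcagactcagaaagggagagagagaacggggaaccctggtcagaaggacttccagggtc

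The Tat window held 3 CCAAT matches, whose leftmost bases lay 168, 72 and 40 bases before the start site, the 168 and 40 ones on the minus strand. The Hal window held 1 CCAAT match, 64 bases before the start site, and 1 TATAAA match on the minus strand, 28 bases before it. Over all 10 windows of the 9 genes (Gstz1 has 2), CCAAT was found in 6, against 37.4% of all 32851 windows of the same length, and TATAAA in 3, against 13.6%. The letters TGTTCT, a glucocorticoid receptor half-site, were found in 2 of the 10 windows, those of Haao and Kmo, against 19% of all windows, and GTTAAT, an HNF1 half-site, in that of Haao only, against 7.1%. The TGTTCT match of Kmo lay after the start site. Sequence outside the windows was not searched, so a window without a match does not show that its gene lacks the site. These matches describe the letters of the windows and are no test of binding.

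Hpd encodes the dioxygenase that turns the product of Tat into homogentisate. Its levels were 6.84, 7.49 and 8.16 in WT replicates 1 to 3 and 8.26, 8.32 and 7.98 in KO replicates 1 to 3. WT replicates 1 and 2 were below every KO liver, and WT replicate 3 lay among them, so the groups overlapped. The fitted difference was 0.69 (SE 0.40, unadjusted p = 0.126).

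Hgd, whose enzyme opens the ring of homogentisate and is the one missing in alkaptonuria, varied most between WT livers. It was at 2.87, 3.97 and 6.25 in WT replicates 1 to 3 and at 5.75, 5.48 and 5.76 in KO replicates 1 to 3. WT replicate 3 was thus the highest of all 6 livers and WT replicates 1 and 2 the lowest. WT livers averaged 4.36 ± 1.73 (SD, n = 3) and KO livers 5.67 ± 0.16 (SD, n = 3). The fitted difference of 1.30 (SE 0.78, unadjusted p = 0.134) was smaller than the SD among WT livers, and with WT replicate 3 as the only WT liver it was -0.59.

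Fah, the gene of fumarylacetoacetate hydrolase, ends the chain, and its loss causes the severe form of tyrosinaemia. Its levels were 4.74, 5.75 and 6.70 in WT replicates 1 to 3 and 6.95, 6.79 and 6.60 in KO replicates 1 to 3. WT replicate 3 lay within the KO range and the other WT livers below it, as for Hpd. The fitted difference was 1.05 (SE 0.50, unadjusted p = 0.0721), and it was 0.08 with WT replicate 3 as the only WT liver.

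Gstz1, the isomerase that acts just before Fah and also metabolises dichloroacetate, had the opposite sign. It was at 9.40, 8.99 and 8.32 in WT replicates 1 to 3 and at 8.31, 8.26 and 7.98 in KO replicates 1 to 3. The groups did not overlap, by a margin of only 0.01 between WT replicate 3 and KO replicate 1. The fitted difference was -0.72 (SE 0.37, unadjusted p = 0.0905), 1.65-fold lower in the KO.

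**Figure D1:**
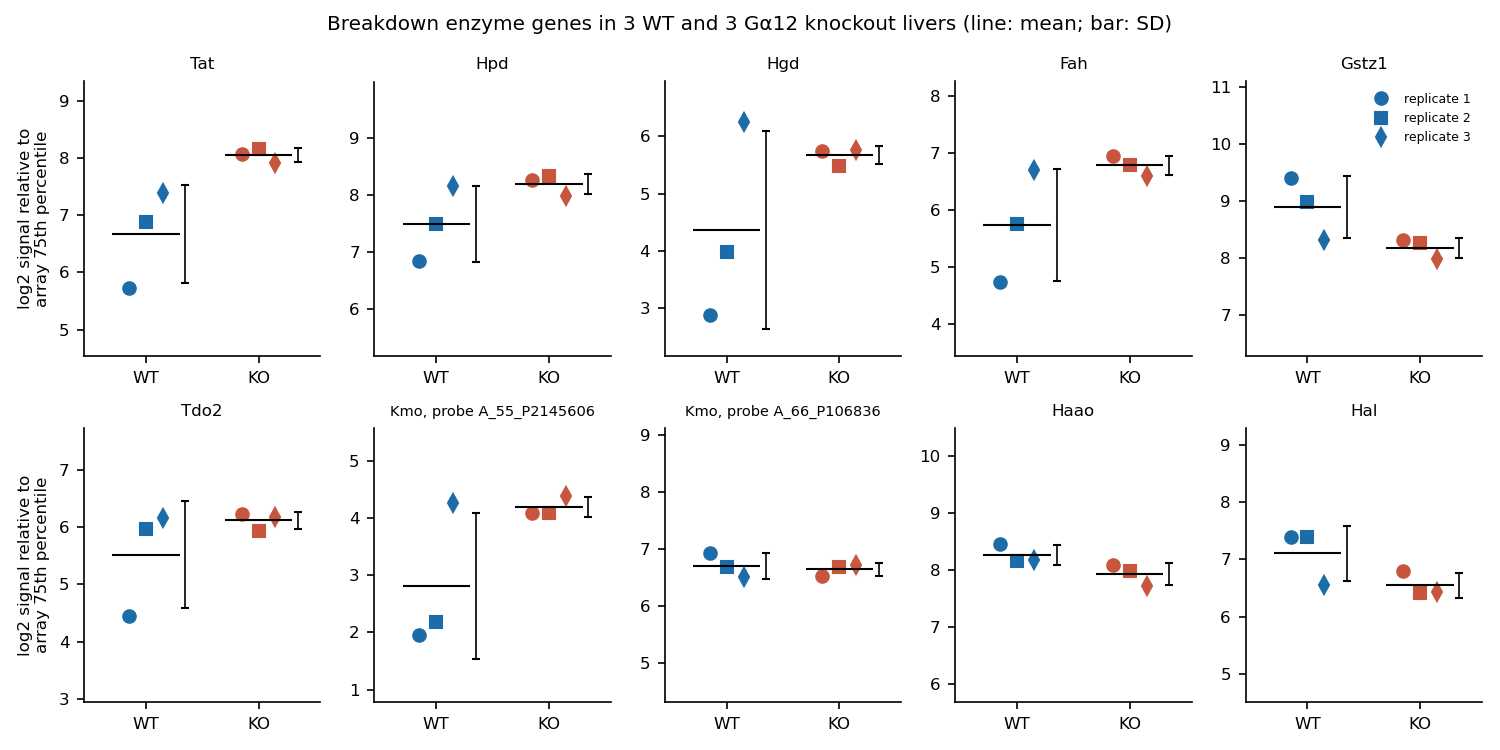
Log2 signal relative to the array's 75th percentile (y axis, each panel spanning the same number of log2 units) for each probe of the 9 genes in WT (blue) and KO (red) livers; symbols are replicates, lines means and bars SDs (n = 3). The KO livers sit close together in every panel, while WT replicates 1 and 2 lie below them for Tat, Hpd, Hgd, Fah and a Kmo probe and above them for Gstz1, Haao and Hal.

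In the tryptophan chain, Tdo2 encodes the dioxygenase that starts breakdown in liver. Its levels were 4.44, 5.97 and 6.16 in WT replicates 1 to 3 and 6.23, 5.94 and 6.18 in KO replicates 1 to 3. WT replicate 1 alone stood apart, at -1.67 relative to the KO mean, and the other WT livers lay within the KO range. The fitted difference of 0.59 (SE 0.49, unadjusted p = 0.262) became 0.05 without WT replicate 1.

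Kmo, the monooxygenase that commits kynurenine to the NAD branch, was read by 2 probes of the same transcript accession, and they disagreed. Probe A_55_P2145606 was at 1.96, 2.19 and 4.27 in WT replicates 1 to 3 and at 4.08, 4.09 and 4.39 in KO replicates 1 to 3. Probe A_66_P106836, which has the higher mean and represents the gene here, was at 6.93, 6.68 and 6.50 in WT and at 6.52, 6.69 and 6.72 in KO. Relative to the KO mean, WT replicates 1 and 2 were at -2.23 and -2.0 with the former and at 0.29 and 0.04 with the latter. The fitted differences were 1.38 (SE 0.61, unadjusted p = 0.0545) and -0.06 (SE 0.30, unadjusted p = 0.847), so the 2 probes give no common value for Kmo. The array files used here hold no probe sequences, so where on the transcript each probe lies was not analysed.

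Haao, the dioxygenase that makes the precursor of quinolinate, was the steadiest member among WT livers. It was at 8.45, 8.16 and 8.17 in WT replicates 1 to 3 and at 8.09, 7.99 and 7.72 in KO replicates 1 to 3. The groups did not overlap, the nearest WT and KO liver being 0.06 apart before rounding, but the fitted difference was small, -0.33 (SE 0.30, unadjusted p = 0.317), and became 0.17 after quantile normalization of the arrays.

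Hal encodes histidine ammonia-lyase, which opens histidine breakdown and is known for high expression around the portal vein. It was at 7.39, 7.39 and 6.56 in WT replicates 1 to 3 and at 6.80, 6.41 and 6.44 in KO replicates 1 to 3. WT replicates 1 and 2 were above all KO livers and WT replicate 3 among them. The fitted difference was -0.57 (SE 0.36, unadjusted p = 0.155), close to the median of -0.49 over all genes, and after quantile normalization it was -0.02.

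Of the 9 genes, 0 passed limma's test over all probes (adjusted p from 0.235 to 0.899 over their 10 probes), as did 0 of all 12297 genes (0%). At an unadjusted p below 0.05 stood 1 of the 9 members, against 20.6% of all genes: Tat, higher in the KO as were 3.98% of all genes, while 0 members were lower, against 16.6%. Groups did not overlap for 3 of the 9 members, against 25.5% of all genes. They were Tat, higher in the KO (4.42% of all genes), and Gstz1 and Haao, lower in the KO (21.1% of all genes). By sign alone, 5 of the 9 genes had a fitted difference above 0, against 27.7% of all genes, and their median difference was 0.59, against -0.49 over all genes. The members were proposed with results of these data in view, so these shares are a description.

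**Figure D2:**
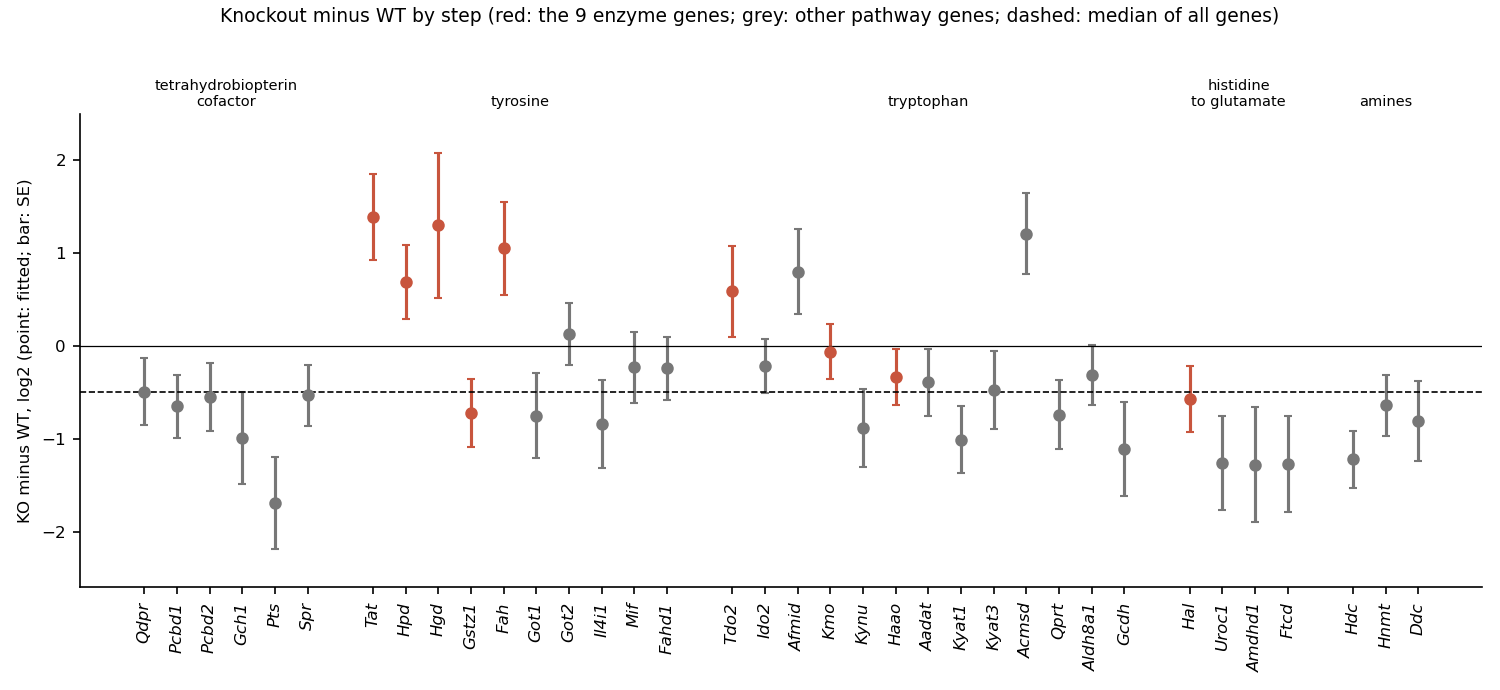
Fitted KO minus WT difference on the log2 scale (y axis; bars are SE, n = 3 per group) for the 9 genes (red) and other kept genes of the same pathways (grey), in the order of the chains; the dashed line is the median of all genes, -0.49. Tat, Hgd and Fah lie highest among the tyrosine genes, and all 4 genes of the histidine chain lie below 0, as do 72.3% of all genes.

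The members' values were more spread among the WT than among the KO livers for 9 of the 10 probes. WT SDs were 0.17 to 1.73 over the 10 probes and KO SDs 0.11 to 0.22, and the WT SD was at least 3 times the KO SD for 7 of them. Over all genes the median SD was likewise larger among WT livers, at 0.65, than among KO livers, at 0.19, so this spread is not particular to the members. WT replicate 1 lay below all KO livers for 5 of the 9 genes and above them for 4. WT replicate 2 lay below them for 4 and above them for 3. The shares of all genes so placed were not computed. WT replicate 3 was within 0.5 log2 units of the KO mean for 7 of the 9 genes, the exceptions being Tat at -0.66 and Hgd at 0.59. The median of the 9 genes relative to the KO mean was -1.34 in WT replicate 1, -0.15 in WT replicate 2 and 0.02 in WT replicate 3.

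The calls depended on which WT livers were included. Without WT replicate 3, 6 members passed limma's test over all probes, as did 7643 of all 12297 genes (62.2%): Hgd at an adjusted p of 0.00658, Tat at 0.013, Fah at 0.0146, Gstz1 at 0.0153, Hal at 0.021 and Hpd at 0.0236. The same number, 6 of 9, had an unadjusted p below 0.05 without that liver, against 68.2% of all genes. Without WT replicates 1 and 2, which leaves 1 WT liver assumed to vary like the KO livers, 0 passed in limma, and 1 of the 9 members had an unadjusted p below 0.05, against 834 of all 12297 genes (6.78%). This was Tat, with a difference of 0.66 (unadjusted p = 0.0333, limma adjusted p = 0.662). The wide span of the Gapdh probes on WT replicates 1 and 2 moves with these values, and its part in them was not tested.

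**Figure D3:**
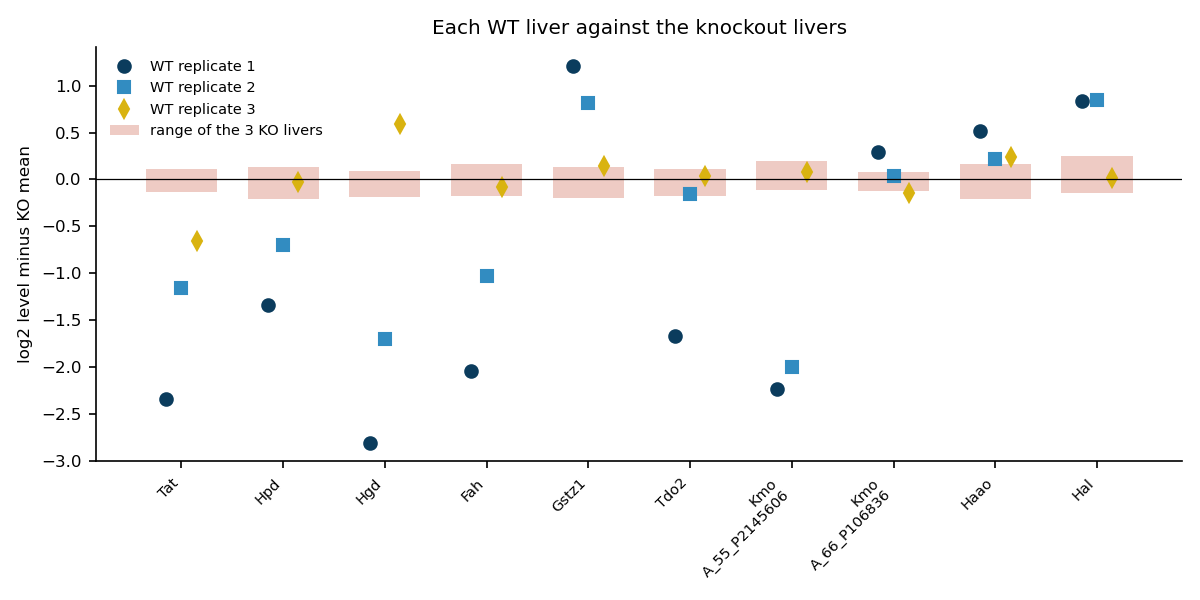
Each WT liver's log2 level minus the KO mean (y axis) for the 10 probes of the 9 genes; symbols are the 3 WT livers and the shaded boxes the range of the 3 KO livers. WT replicate 3 (yellow) lies in or near the box except for Tat at -0.66 and Hgd at 0.59, while WT replicate 1 departs by up to -2.80.

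Of 29 other genes of the same chains, 28 had a kept probe, the exception being Ido1, an inducible counterpart of Tdo2 outside the liver, whose probe was not well above background on any array. Of these 28, 0 passed limma's test over all probes, 1 was higher and 5 were lower at an unadjusted p below 0.05 (3.98% and 16.6% of all genes), and 25 had a fitted difference below 0, against 72.3% of all genes. Their median difference was -0.69, against -0.49 over all genes. WT replicates 1 and 2 both lay above all KO livers for 24 of the 28. The share of all genes so placed was not computed, but the shift was not particular to these genes. Without WT replicate 3, the median difference over all genes was -0.77. In that limma fit 6742 of all 12297 genes were lower in the KO at an unadjusted p below 0.05.

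The 4 genes of the histidine chain all had differences below 0, from -1.28 to -0.57, and 72.3% of all genes were also below 0. Its remaining steps are run by Uroc1 (urocanase), Amdhd1 (imidazolonepropionase) and Ftcd, which passes a formimino group to folate. Uroc1 was at 8.07, 7.80 and 6.26 in WT replicates 1 to 3 and at 6.40, 5.93 and 6.02 in KO replicates 1 to 3, a difference of -1.26 (SE 0.51, unadjusted p = 0.0393). Ftcd was at 9.46, 8.97 and 7.61 in WT and at 7.57, 6.97 and 7.67 in KO, a difference of -1.27 (SE 0.52, unadjusted p = 0.04). Amdhd1, named here after its values were seen, differed by -1.28 (SE 0.62, unadjusted p = 0.0748). For all 4 genes of the chain, Hal included, WT replicates 1 and 2 were above every KO liver, and WT replicate 3 was within 0.21 of the KO mean. The share of all genes with both these livers above every KO liver was not computed. The limma adjusted p of Uroc1 and Ftcd was 0.235, and 16.6% of all genes were lower in the KO at an unadjusted p below 0.05.

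Genes for the synthesis of tetrahydrobiopterin, a cofactor of aromatic amino acid metabolism, were also listed. Pts, which makes an intermediate of this cofactor, was at 3.12, 2.79 and 1.80 in WT replicates 1 to 3 and at 1.68, 0.47 and 0.50 in KO replicates 1 to 3. Its groups did not overlap, with WT replicate 3 near KO replicate 1, and the difference was -1.69 (SE 0.50, unadjusted p = 0.01, limma adjusted p = 0.235).

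In the tryptophan chain, 3 of 13 kept genes had differences above 0, against 27.7% of all genes. Acmsd, which diverts tryptophan carbon from NAD toward oxidation, was at 0.08, 0.57 and 1.6 in WT replicates 1 to 3 and at 1.73, 1.97 and 2.18 in KO replicates 1 to 3. The groups did not overlap, and the difference of 1.21 (SE 0.44, unadjusted p = 0.0267) was the largest above 0 among the 28 other pathway genes. Kyat1, a transaminase that makes kynurenic acid, was lower with both its probes, by -1.01 (SE 0.36, unadjusted p = 0.0234) and -0.55 (SE 0.29, unadjusted p = 0.0974), and with each probe all WT livers were above all KO livers. Gcdh, a mitochondrial dehydrogenase late in the oxidation branch, differed by -1.11 (SE 0.51, unadjusted p = 0.0612), with WT replicate 3 at 5.63 within the KO range of 5.57 to 5.73. None of these passed in limma over all probes (adjusted p = 0.235 for Acmsd and Kyat1, 0.24 for Gcdh).

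Hdc, which makes histamine from histidine and is known from mast cells and other non-hepatocytes, had the lowest unadjusted p of the 28 genes. It was at 0.46, 0.16 and -0.10 in WT replicates 1 to 3 and at -1.08, -1.18 and -0.89 in KO replicates 1 to 3. The groups were apart by more than their own ranges, and WT replicate 3 was 0.95 above the KO mean. The difference was -1.22 (SE 0.31, unadjusted p = 0.00506, limma adjusted p = 0.235).

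Several of these genes had 2 probes, which allows the readings to be compared within a gene. Of 9 members and other pathway genes with 2 kept probes, 5 had fitted differences of opposite sign (Kmo, Kynu, Kyat3, Qdpr and Ddc), or 55.6%, against 43.1% of all 2737 genes with several kept probes. Kynu, which cleaves kynurenine and its hydroxylated form, differed by -0.88 (SE 0.42, unadjusted p = 0.0745) with 1 probe and by 0.42 (SE 0.51, unadjusted p = 0.442) with the other. The gap between the Kmo probes was 4.97 and 4.49 log2 units on WT replicates 1 and 2 and 2.23 to 2.59 on the other 4 arrays. On both WT replicates 1 and 2 the gap was wider than on every other array for 7 of the 9 genes (77.8%), all except Hnmt and Mif, against 53.7% of all 2345 genes with 2 kept probes. With gaps wider on both or narrower on both counted together, the shares were 77.8% of the 9 genes and 69.4% of all 2345. For a gene with 1 probe, as all members but Kmo are, no such comparison can be made.

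**Figure D4:**
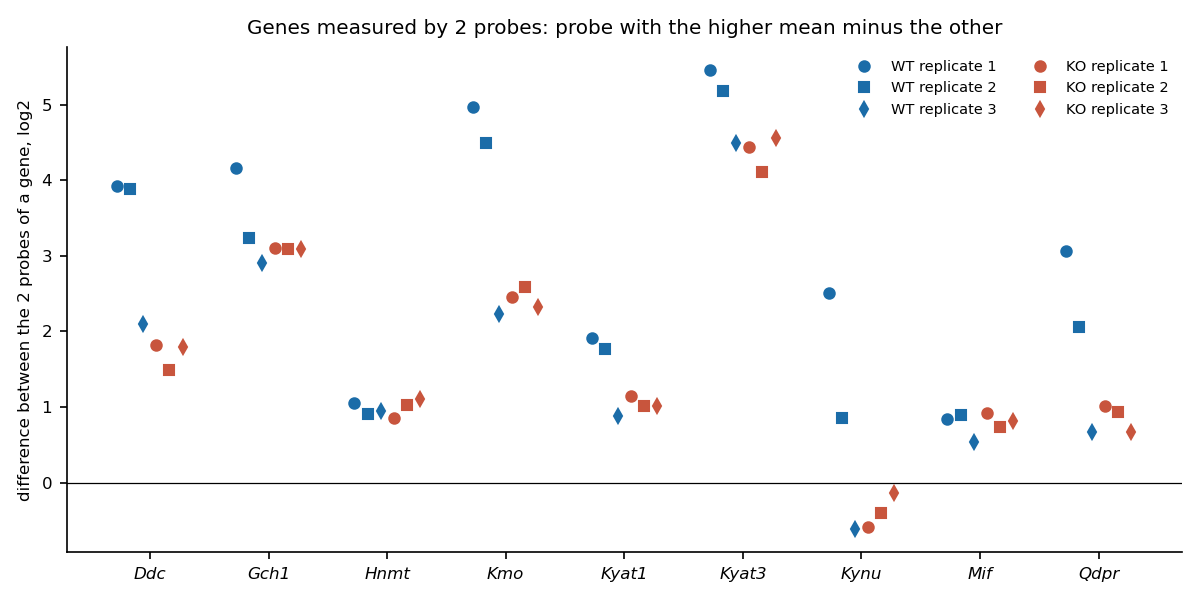
Difference on the log2 scale (y axis) between the probe with the higher mean and the other probe of each pathway gene with 2 kept probes, on each array (blue WT, red KO; symbols are replicates). WT replicates 1 and 2 have the widest gaps for 7 of the 9 genes, Kmo among them at 4.97 and 4.49, whereas WT replicate 3 lies near the KO arrays.

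Glucocorticoid-responsive genes were listed because Tat and Tdo2 belong to that class. All 15 of the list were kept, 0 passed limma's test over all probes, and at an unadjusted p below 0.05 1 was higher and 3 lower (3.98% and 16.6% of all genes), with a median difference of -0.61, against -0.49 over all genes. Of the 15, 9 had differences below 0, against 72.3% of all genes. Per1, a clock gene, was higher by 1.91 (SE 0.78, unadjusted p = 0.0417), with WT replicate 3 at 2.66 among KO livers at 2.30 to 3.00. Igfbp1, a fasting-induced binding protein gene, differed by -1.53 (SE 0.55, unadjusted p = 0.0247) and the metallothionein gene Mt2 by -1.28 (SE 0.52, unadjusted p = 0.0399). The groups overlapped for both genes. Igfbp1 was at 7.17 in KO replicate 1 and 6.95 in WT replicate 3, and Mt2 at 7.79 in KO replicate 2 and 7.5 in WT replicate 3. Nr3c1, which encodes the glucocorticoid receptor, differed by -1.58 (SE 0.45, unadjusted p = 0.00804) with the representing probe and by -0.69 (SE 0.32, unadjusted p = 0.0661) with the other.

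The genes whose pattern over the 6 arrays was most like that of Tat, by the root mean square difference of mean-centred log2 levels among 12296 other genes, were Hapln4 (0.116 log2 units), Ctdnep1 (0.120), Tle1 (0.121), Trabd (0.137) and Nolc1 (0.145). Each was lowest on WT replicate 1, next on WT replicate 2 and below all KO livers on WT replicate 3, as Tat was. Among the members, Fah came nearest to Tat, at rank 31 with 0.223 log2 units, and Gstz1 lay farthest, at rank 7191 with 1.32. With 6 arrays, of which WT replicates 1 and 2 carry most of the spread, this likeness is a description of the arrays.

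Markers of other cell types were also read, where a call again means an unadjusted p under 0.05, which 3.98% of genes met as higher and 16.6% as lower. Of 9 kept Kupffer cell and macrophage markers, 1 was called higher (C1qa) and 0 lower, 6 had differences below 0, the median was -0.17, and the summed signal was 89.4 to 184 in WT and 92.9 to 111 in KO livers. Csf1r differed by -0.54 with its representing probe and by 2 and 0.57 with its other kept probes. Of 8 endothelial markers, 2 were called higher (Kdr and Cdh5) and 0 lower, but 4 had differences below 0, the median was -0.08, and the sum was 108 to 137 in WT and 96.5 to 124 in KO. The other Kdr probe differed by -0.28. Of 8 kept stellate cell markers, 0 were called higher and 2 lower (Lrat and Hand2), 7 had differences below 0, the median was -0.88, and the sum was 90.6 to 153 in WT and 69.0 to 81.9 in KO. Bile duct markers (3 of 5 kept) summed to 1.23 to 3.37 in WT and 2.09 to 2.87 in KO, lymphocyte markers (5 of 8 kept) to 55.8 to 90.0 and 64.6 to 110, and red cell markers (4 of 6 kept) to 297 to 526 and 268 to 311. Of 7 skeletal muscle markers 2 were kept, with sums of 0.134 to 0.267 in WT and 0.273 to 2.44 in KO livers. Both were well above background on only 3 of the 6 arrays, the fewest that the filter allows. A gene high in 1 group alone can pass that filter, so their values, the call below included, are a description. The muscle actin gene Acta1 was called higher, by 2.58 (unadjusted p = 0.00999 in limma), at -3.93, -3.22 and -2.67 in WT replicates 1 to 3 and at -2.45, -0.15 and 0.53 in KO replicates 1 to 3. Both kept muscle genes were highest in KO replicates 2 and 3, Tnnt3 at -2.07 and -0.01 there. Myh4, which was well above background on 1 array and was not kept, stood at -0.06 in KO replicate 3. The part of these markers in the members' values was not tested.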

How the data were processed

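The deposited scanner files, which the authors made with Agilent Feature Extraction 10.7.3.1, per the submitters' processing notes, hold the intensity of 62976 spots on a linear scale: a processed intensity, background-subtracted with low values set to a floor, and raw medians of spot and local background. The deposited matrix of log2 values equals the log2 processed intensity plus a constant per array, whose choice stays unknown. Per the labels' protocols, Cy3-labelled cRNA was made from 0.5 µg of RNA.

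Here, log2 processed intensity minus the 75th percentile of each array's non-control spots was used. Control spots and outlier spots were left out, and a probe's spots averaged. Of 55681 probes, 55324 had a value on all arrays, and 23132, well above background on at least 3 of 6 arrays, were kept. The probes well above background numbered 28752 on WT replicate 3 and 20953 to 23530 on the other arrays, and 3 arrays per group limit the precision. No spot was saturated. Symbols came from RefSeq (GRCm38.p6) by unversioned accession (26762 probes matched, 28919 did not), and the arrays were designed on another build. The kept probe with the highest mean represented a gene.

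The groups were compared with limma 3.58.1 (R 4.3.3, lmFit, eBayes, two-sided, Benjamini-Hochberg over kept probes, threshold 0.05). The code was tested on simulated data with independent errors, SDs capped at the median SD and added differences larger than any member's. That simulation did not copy the unlike WT livers, so it says nothing of the fit's power or errors on these arrays. All arrays were on 1 slide. Alternatives were other scalings, background correction, filters, probe averaging, variance models, a replicate block and left-out livers. The members and lists were chosen with earlier results of these data known; the order by chain was set after the values were seen. Named genes were all members, pathway genes with an unadjusted p below 0.05 (filled up to 8), listed glucocorticoid genes below it, the 5 genes nearest to the member with the lowest p, and Gna12. Amdhd1, Ido1, Gapdh, the cell type markers and the genes named for how their probes compare were named outside this rule, after their values were seen. The values of 1 listed pathway gene, which is in the counts over the list, are not reported here.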

Additional observations from a re-analysis of the deposited data

How the results depend on the processing

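Under 16 alternatives, Tat, Hpd, Fah, Gstz1 and Hal kept their sign, with Tat at 0.66 to 1.83. The count of members past limma's adjusted threshold was 0 in all but 1, and 0 to 6 when livers were left out in turn, with 6 without WT replicate 3. At an unadjusted p below 0.05 the members numbered 0 to 6 and the other pathway genes 2 to 23 over the same left-out livers, against 704 to 8384 of all 12297 genes (5.72% to 68.2%, the highest without WT replicate 3 in each case), and the pathway genes 1 without WT replicates 1 and 2 together, against 834 of all genes (6.78%). The members' median difference, 0.59, was 1.08 after quantile normalization, 1.05 after normexp with quantile normalization, -0.02 without WT replicates 1 and 2 and 0.05 to 0.91 with a liver left out. Kmo, -0.06, changed sign to 0.45 with quantile normalization and with normexp, 0.08 with arrays scaled to the median, 0.66 as the mean of its probes, 0.14 without WT replicates 1 and 2 and up to 0.05 with a liver left out (lowest -0.16). Haao became 0.17 with quantile normalization and 0.12 with normexp. Without WT replicates 1 and 2, Hgd was -0.59, Tdo2 -0.04 and the other Kmo probe -0.08. The causes were not tested. Among all genes, the median difference was -0.49, and -0.21 with quantile normalization, -0.18 with normexp, -0.36 with median scaling, -0.55 in the deposited matrix and -0.08 without a filter. Of genes with an unadjusted p below 0.05, 80.6% were lower in the KO, against 69.5% with median scaling, 42.6% without a filter, 70.2% with the replicate block and 59.8% without WT replicates 1 and 2. Limma called 0 probes in the main setting, with 2528 genes at an unadjusted p below 0.05, 2 with normexp, 2 with the filter on all 6 arrays, 7 genes with probe means and 13123 probes without WT replicate 3. Replicate numbers did not pair the livers (correlations of same-numbered deviations -0.13, 0.0093 and -0.0431), and with the replicate block Tat kept 1.39 (adjusted p = 0.222), with 0 members called. Signal over background did not limit the members, all of which were well above it on all 6 arrays.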
